A study of Mus musculus with 13 samples.

Results

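The comparison described here sets UG26-1B6 stroma harvested 24 h after a change of culture medium (the medium control, 2 arrays) against the same stroma before co-culture (day 0, 3 arrays). These 5 of the series' 13 arrays were taken by their sample titles. The series profiled this stroma on Affymetrix mouse genome arrays, also after 1, 2 and 3 days with LSK cells, a bone marrow fraction rich in haematopoietic stem and progenitor cells. Its title asks which factors made by the stroma regulate the maintenance of those cells, and the medium control matches day 1 of co-culture in time but holds no LSK cells. UG26-1B6 is a single stromal clone derived from the urogenital ridge of a midgestation mouse embryo, so all groups share its genotype. Per the labels' protocols, the clone was grown on gelatin at 33 °C in a stromal medium with 15% fetal calf serum, 5% horse serum and medium conditioned by the same line. Day 0 cells were taken off with trypsin. Stroma destined for LSK cells was irradiated with 30 Gy, and the labels do not say if day 0 and medium control stroma received this dose or by which means the medium control was collected. The renewal of the medium, the added day in culture and any such difference in handling therefore cannot be told apart. The replicates are biological by the sample titles but technical by the design text, so a p-value here speaks of the spread among replicate arrays, which may be technical.

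Fresh serum-containing medium supplies growth factors, hormones, trace metals and nutrients to cells that have been depleting theirs. In fibroblast-like cells it is known to act in waves: immediate early genes such as Fos and Egr1 respond first and briefly, and genes for ribosome assembly, DNA replication and mitosis follow as cells re-enter the cycle. Serum also carries glucocorticoids, which act through the receptor Nr3c1 on targets such as Tsc22d3 and Fkbp5, and zinc, which acts through the factor Mtf1 on the metallothionein genes. Insulin and its relatives hold FOXO transcription factors out of the nucleus, so that FOXO targets are low in fed cells.

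Values are deposited log2 levels of 1 probe set per gene, over 12205 genes, and changes are differences of group means (medium control minus day 0) ± standard error from limma. The spread behind each standard error and p-value was estimated over all 13 arrays. Co-culture arrays therefore add to it, and it is not the spread of the 5 compared arrays alone. The 5 arrays carried stromal transcripts: 15 of 18 stromal markers were measured, with Vim between 12.36 and 13.45, Pdgfra between 8.21 and 10.90 and Pdgfrb between 10.50 and 12.59. Of 18 markers of haematopoietic stem and progenitor cells, 10 were measured. Of these, 4 sat at the lowest deposited value on all 5 arrays, among them the pan-leukocyte gene Ptprc at 2.28. Others did not: Gata2 read between 6.85 and 7.29 on the 5 arrays, and Cd34 reached 4.17 on day 0 replicate 2. RNA added as poly-A control before labelling read higher at day 0 than in the medium control: its mean over 8 probe sets was 5.45, 6.41 and 8.55 on the day 0 arrays against 4.63 and 4.88, and between 10.1 and 14.4 on the co-culture arrays. The 3′ minus 5′ difference of Gapdh, a measure of RNA integrity, was 3.69, 3.82 and 2.67 at day 0 against 2.15 and 2.72. The part of either measure in the results was not tested. In bulk RNA, fewer cells expressing a gene and less of its RNA per cell cannot be told apart.

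Day 0 replicate 1 stood apart from the other day 0 arrays and lay nearer to the medium control. Across the 12205 genes, which are not independent replicates, it correlated with the medium control arrays at r = 0.979 and 0.980 and with day 0 replicates 2 and 3 at 0.973 each, while those 2 correlated with each other at 0.983. It differed at least 2-fold from day 0 replicate 2 in 2007 genes (16.4%) and from the medium control arrays in 1470 (12%) and 1364 (11.2%), whereas day 0 replicates 2 and 3 differed from the medium control in 24.2% to 27% of genes. The medium control arrays differed from each other in 66 genes (0.541%). Of 2865 genes at least 2-fold apart between the medium control and day 0 replicates 2 and 3, day 0 replicate 1 lay nearer the medium control for 1640 (57.2%), with a median position of 0.57 on a scale from 0 at those day 0 arrays to 1 at the medium control. By the same measure day 0 replicate 2 was nearer the medium control for 8.82% of its genes and replicate 3 for 18%. Results that rest on day 0 replicate 1 are therefore also given without it.

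Medium renewal was followed by higher expression of 27 genes (0.221% of those tested) and lower expression of 13 (0.107%) at an adjusted p-value (limma, Benjamini-Hochberg) below 0.05. At shares this small, gene lists of the sizes used here would mostly hold no call whatever their genes. The absence of a call from a list is therefore not a result about that list. Each of the 40 differed at least 2-fold, and in each every medium control array lay on one side of every day 0 array. These genes were selected on the same arrays, so this is a description and not added support. Over all genes tested, the groups did not overlap in 5279 (43.3%). The largest rises were in Tsc22d3, Mt2, Zfp185 and Irs2, from 21.3-fold to 8.76-fold, and the largest falls in Thbd, Abi3bp, Rerg and Hoxb5os, from 24.9-fold to 8.34-fold. Over all genes tested, 853 (6.99%) were at least 2-fold higher in the medium control with groups that did not overlap, and 1088 (8.91%) at least 2-fold lower, of which 826 and 1075 did not pass the threshold. These 2 shares are the background for such counts of list members below. The plot of called genes by array shows the 2 medium control arrays close together for nearly every gene and the wider spread at day 0.

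**Figure D1:**
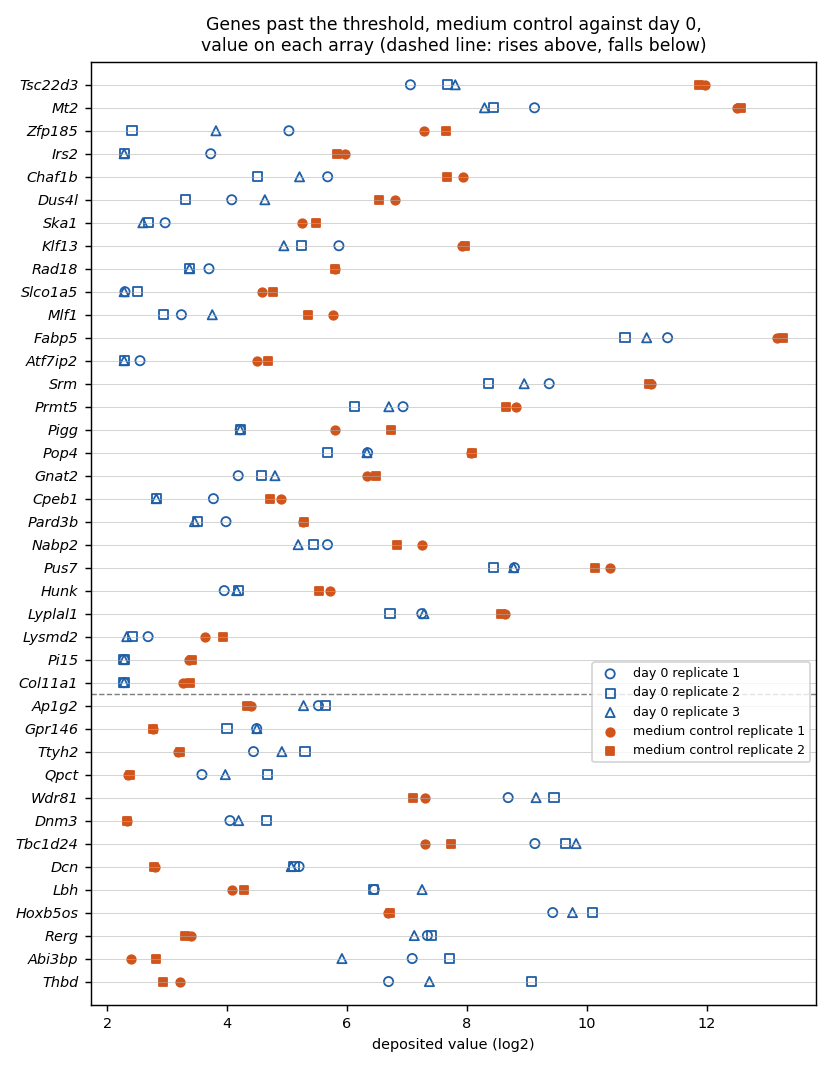
Deposited log2 value of the 40 genes past the threshold on each of the 3 day 0 arrays (open blue) and 2 medium control arrays (filled orange), with rises above the dashed line and falls below it. The groups overlap in none of these genes, which were selected on the same arrays. Tsc22d3, at 7.06 to 7.80 on day 0 and 11.87 to 11.97 in the medium control, is the largest rise.

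How many genes passed depended on arrays outside the comparison and on scaling. Day 2 co-culture replicate 1 had the highest Gapdh 3′ minus 5′ difference of the series, 8.96, and enters only through the shared spread. Leaving it out of the fit gave 95 rises (0.778%) and 71 falls (0.582%), and all 40 genes stayed past the threshold. Without day 0 replicate 1 there were 81 rises (0.664%) and 56 falls (0.459%), and 39 of the 40 stayed, Gpr146 being lost at an adjusted p (limma) of 0.0587. Centring each array on its probe sets above the lowest value left 1 rise, Tsc22d3, and 0 falls, with 661 genes at an unadjusted p below 0.05 against 1153 as reported. Rad18, Atf7ip2, Mt2, Slco1a5 and Ska1 passed without any one of the 5 compared arrays, and the others lost the call without at least 1 of them. Of the 40, 10 stayed past the threshold without day 0 replicate 2 and 11 without replicate 3. Leaving out a medium control array leaves 1 array in that group.

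Tsc22d3 and Mt2 had the largest rises. Tsc22d3 encodes a leucine zipper protein that carries part of the anti-inflammatory action of glucocorticoids. Its level was 7.06, 7.68 and 7.80 at day 0 and 11.97 and 11.87 in the medium control, a rise of 4.41 ± 0.64 (limma, adjusted p = 0.0289). All day 0 arrays were low and close together, and day 0 replicate 1 was the lowest of them. Of 2 other probe sets for Tsc22d3, one differed by 4.95 and the other by 0.60.

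Mt2 encodes a metallothionein, a small cysteine-rich protein that binds zinc and copper. Its level was 9.13, 8.45 and 8.29 at day 0 and 12.51 and 12.57 in the medium control, a rise of 3.92 ± 0.31 (limma, adjusted p = 0.00216). Metallothionein promoters carry metal response elements bound by Mtf1, and the Mt2 promoter is shown because few promoters hold as many element cores. The RefSeq window upstream of its annotated start (GRCm38.p6, chr8:94172368-94172617, plus strand) holds 3 cores, searched as TGCACNC or TGCGCNC on both strands and given in capitals:
Mt2: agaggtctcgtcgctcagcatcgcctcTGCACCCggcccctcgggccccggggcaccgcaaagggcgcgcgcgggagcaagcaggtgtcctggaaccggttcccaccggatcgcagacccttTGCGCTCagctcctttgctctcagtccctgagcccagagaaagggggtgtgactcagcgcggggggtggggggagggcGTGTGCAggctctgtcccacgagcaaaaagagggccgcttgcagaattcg
In windows from 250 bases before to 50 after an annotated start, at least 1 core was found for 40% of the 9895 tested genes with a window and at least 3 for 3.79%. Of the 21 genes that rose and had a window, 7 held a core (33.3%), as did 3 of 7 that fell, so the cores were no more frequent by count among rises than among all tested genes. A match is a description of these letters, not a measured site.

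The glucocorticoid receptor half-site AGAACA, searched the same way, was found for 14.8% of tested genes and for 2 of 21 rises, Tsc22d3 (in 1 of its 3 windows) and Zfp185. The E-box CACGTG, the sequence read by Myc and the clock factors, was found for 11.6% of tested genes, for 3 of 21 rises and for 3 of 7 falls.

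Other metallothioneins and zinc transporters did not pass. Of 23 measured members of that list, Mt2 alone rose and none fell, and the median change was -0.09 against 0 over all genes, -0.22 without day 0 replicate 1 and -0.01 without day 0 replicate 3. Mt1, the neighbouring metallothionein gene, read 10.41, 10.37 and 9.73 at day 0 and 11.98 and 11.88 in the medium control, a difference of 1.76 ± 0.34 (limma, adjusted p = 0.0916). Its groups did not overlap, and it passed with day 2 co-culture replicate 1 left out (adjusted p = 0.0162). The probe set used is of a kind that may match several transcripts, and another Mt1 probe set differed by -1.21, so the gene's probe sets disagree in direction. Mt3, the metallothionein of the nervous system, stayed near the lowest value, between 2.28 and 2.39.

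Among 21 measured members of the glucocorticoid receptor list, 1 rose. At least 2-fold higher with groups that did not overlap were 7 (6.99% over all genes), and 3 were as far lower (8.91% over all genes). The median change of 0.04 turned to -0.23 without day 0 replicate 1 and to the same value without medium control replicate 1. The receptor gene itself, Nr3c1, differed by -0.63 ± 1.04 (limma, adjusted p = 1). Fkbp5, a co-chaperone that limits the receptor's hormone binding, read 8.29, 9.43 and 9.27 at day 0 and 13.31 and 13.15 in the medium control. That difference of 4.23 ± 1.08 missed the threshold (limma, adjusted p = 0.19). With day 2 co-culture replicate 1 left out, 4 members rose: Tsc22d3, Fkbp5 (adjusted p = 0.0111) and, named here after their values were seen, Zbtb16 and Lcn2. Zbtb16, a zinc finger repressor, differed by 4.43 in both fits, and Lcn2, an iron-siderophore carrier that read 3.11 on all 3 day 0 arrays, by at least 3.47.

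Irs2, the adaptor that links insulin and IGF1 receptors to PI3 kinase, read 3.73, 2.28 and 2.28 at day 0 and 5.97 and 5.83 in the medium control. It rose by 3.13 ± 0.38 (limma, adjusted p = 0.0164), and day 0 replicates 2 and 3 sat at the lowest deposited value. It was the single riser among 23 measured genes of insulin signalling and FOXO targets, and none fell past the threshold. Of the 23, 6 were at least 2-fold lower with groups that did not overlap, against 8.91% of all genes. The list's median change was -0.39, and Irs1 and Insr, the sister adaptor and the insulin receptor, differed by -0.91 and -0.51 without passing. Pink1, a kinase of mitochondrial quality control named after its values were seen, differed by -2.40 ± 0.50 (limma, adjusted p = 0.119) and fell with day 2 co-culture replicate 1 left out (adjusted p = 0.0423).

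Klf13, a Kruppel-like zinc finger factor, rose by 2.59 ± 0.36 (limma, adjusted p = 0.025), from 5.86, 5.24 and 4.95 to 7.91 and 7.96. It was the 1 member of 12 measured Kruppel-like factors that passed. Fabp5, a cytosolic carrier of fatty acids, rose by 2.23 ± 0.32 (limma, adjusted p = 0.0286), from between 10.63 and 11.35 at day 0 to 13.17 and 13.28, and another of its probe sets differed by 3.33. Fabp4, the adipocyte member of the family, differed by 1.83 ± 0.41 (limma, adjusted p = 0.138) and Pparg by 1.11. Zfp185, a LIM domain protein found with actin, read 5.03, 2.41 and 3.81 at day 0, the widest day 0 spread among the genes that rose, and 7.28 and 7.65 after medium renewal.

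Genes for making ribosomes were the list with the largest share of distant members. Of 36 measured genes of ribosome biogenesis and polyamine synthesis, 34 had a difference above 0, 22 were at least 2-fold higher with groups that did not overlap and none was as far lower, and the median change was 1.24 against 0 over all genes. Averaged over the list, the day 0 arrays read 9.32, 8.96 and 9.58 and the medium control arrays 10.47 and 10.37. Only Srm passed the threshold. The median stayed above 0 in each of 16 alternative settings, between 1.03 and 1.35. Several of these change only the spread or the co-culture arrays fitted, which leaves each difference as it was and fixes the sign. Day 0 replicate 1 lay nearer the medium control than to the other day 0 arrays for 2 of the list's 22 genes that were 2-fold apart between those arrays, and without it the median was 1.29.

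Srm, which makes spermidine from putrescine, read 9.37, 8.35 and 8.95 at day 0 and 11.07 and 11.04 in the medium control, a rise of 2.16 ± 0.32 (limma, adjusted p = 0.0289). Ncl and Fbl, the nucleolar proteins nucleolin and fibrillarin, differed by 1.32 ± 0.62 and 1.29 ± 1.00 and did not pass. Rrp1b, a nucleolar protein named after its values were seen, rose both with day 2 co-culture replicate 1 left out (limma, adjusted p = 0.0316) and without day 0 replicate 1 (0.0129). Nop58, a core protein of the particles that methylate ribosomal RNA and also named after its values were seen, had the list's largest difference, 3.22 ± 0.78 (limma, adjusted p = 0.17). Its day 0 arrays ranged from 8.26 to 10.79 and its medium control arrays read 13.05 and 12.40.

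Genes that act on transfer RNA and on RNA processing were among the rises. Dus4l, a dihydrouridine synthase, read 4.08, 3.31 and 4.63 at day 0 and 6.81 and 6.53 in the medium control and rose by 2.67 ± 0.35 (limma, adjusted p = 0.023). Pus7, a pseudouridine synthase, rose by 1.59 ± 0.23 (limma, adjusted p = 0.0289) from 8.79, 8.44 and 8.78 to 10.39 and 10.14. These were 2 of 26 measured genes of transfer RNA modification and synthesis, of which 8 were at least 2-fold higher with groups that did not overlap and none as far lower, with a median change of 0.53. Pop4, a subunit of the ribonucleases that trim transfer and ribosomal RNA precursors, rose by 1.96 from 6.34, 5.68 and 6.33 to 8.07 and 8.08. Prmt5, an arginine methyltransferase that acts on spliceosomal proteins and histones, rose by 2.15 ± 0.33 (limma, adjusted p = 0.033), on a probe set that, like that of Mt1, may match several transcripts.

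The lists for DNA replication and for mitosis held 1 call each, both rises. Among 39 measured genes of DNA replication and chromatin assembly, 17 were at least 2-fold higher without overlap and none as far lower, with a median change of 0.88. The list's mean was 8.25, 8.16 and 8.21 on the day 0 arrays and 9.13 and 9.15 on the medium control arrays. Both medium control arrays lay above all 3 day 0 arrays. Day 0 replicate 1 lay nearer the medium control than to the other day 0 arrays for 6 of the list's 19 genes that were 2-fold apart between those arrays, and without it the median was 0.91. Chaf1b, the subunit of chromatin assembly factor 1 that places histones on new DNA, rose by 2.67 ± 0.40 (limma, adjusted p = 0.0307) from 5.68, 4.51 and 5.21 to 7.94 and 7.66. Pcna, the sliding clamp, and Mcm2, part of the replicative helicase, differed by 0.56 ± 0.23 and 1.85 ± 0.75 and did not pass.

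Among 42 measured genes of mitosis and the spindle, 13 were at least 2-fold higher without overlap and none as far lower, with a median change of 0.79 and list means of 7.05 to 7.38 on the day 0 arrays against 7.95 on the lower medium control array. Day 0 replicate 1 lay nearer the medium control for 10 of 21 genes of this list that were 2-fold apart, and without it the median was 0.95. Ska1, which couples kinetochores to spindle microtubules, read 2.97, 2.69 and 2.60 at day 0 and 5.25 and 5.48 in the medium control and rose by 2.61 ± 0.23 (limma, adjusted p = 0.00216). Its 2 other probe sets, at or near the lowest value in both groups, differed by 0 and -0.03. Mki67, the proliferation marker, read 8.30, 7.65 and 7.17 at day 0 and 9.13 and 8.76 in the medium control, and this difference of 1.24 ± 2.11 did not pass (limma, adjusted p = 1). Cdk1, the kinase that drives mitotic entry, differed by 0.80 ± 0.62. Cdkn1a, the p53-regulated inhibitor of cyclin-dependent kinases, differed by -0.53 ± 0.74, and another of its probe sets by 1.10, in the other direction. None of 26 measured p53 targets passed in either direction, with a median of -0.54. The 4 growth lists kept the sign of their medians in all 16 alternative settings. Those settings that change only the spread or the co-culture arrays fitted could not alter it.

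Rad18, the ubiquitin ligase that marks Pcna at stalled forks, read 3.70, 3.37 and 3.37 at day 0 and 5.79 and 5.80 in the medium control and rose by 2.32 ± 0.20 (limma, adjusted p = 0.00216). Its 3 other probe sets differed the same way, by 1.08, 0.56 and 1.66. Nabp2, a single-strand DNA binding protein of double-strand break repair, rose by 1.61 ± 0.24 (limma, adjusted p = 0.033) from 5.67, 5.45 and 5.19 to 7.24 and 6.84.

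The largest falls included secreted and surface genes. Thbd encodes thrombomodulin, the surface receptor that turns thrombin toward activating protein C. It read 6.69, 9.08 and 7.37 at day 0 and 3.22 and 2.94 in the medium control, a fall of 4.64 ± 0.73 on the log2 scale (limma, adjusted p = 0.0362), with the day 0 arrays spread widely. Of 14 measured genes of coagulation and the urokinase system, Thbd alone fell. At least 2-fold lower with groups that did not overlap were 4, against 8.91% of all genes. The list's median was -0.42, against -0.14 without day 0 replicate 2 and -0.79 without replicate 3. Procr, the protein C receptor, differed by -2.27 ± 1.58 and tissue factor, F3, by -0.06 ± 1.05, and neither passed. Plat, tissue plasminogen activator, named after its values were seen, differed by -2.89 and fell with day 2 co-culture replicate 1 left out (limma, adjusted p = 0.0459).

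Abi3bp, a matrix protein first found as a binding partner of an Abl interactor, read 7.09, 7.71 and 5.91 at day 0 and 2.41 and 2.81 in the medium control. It fell by 4.29 ± 0.42 (limma, adjusted p = 0.00321) on a probe set that may match several transcripts, and another differed by -2.44. Dcn, the small proteoglycan decorin that binds collagen fibrils and TGF-beta, read 5.20, 5.12 and 5.07 at day 0 and 2.80 and 2.78 after medium renewal, and fell by 2.34 ± 0.22 (limma, adjusted p = 0.00321). Both groups were tight, and day 0 replicate 1 was the highest of the 5 arrays. Col11a1, a fibrillar collagen chain, sat at 2.28 on all day 0 arrays and at 3.26 and 3.39 in the medium control, so it rose by at least 1.04 (limma, adjusted p = 0.033).

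The matrix lists did not move one way. Of 34 measured matrix glycoproteins, 11 were at least 2-fold lower with groups that did not overlap and 5 as far higher. Their median was -0.41 (-0.66 without day 0 replicate 3). For this list and the collagens, the shares over all genes were 8.91% lower and 6.99% higher. Fn1, fibronectin, differed by 0.41 and Fbn2, fibrillin 2, by -2.25, and neither passed. Of 27 measured collagens, 5 were as far lower and 3 as far higher, with a median of -0.23 against -0.0049 without day 0 replicate 2. Col1a1, the main chain of type I collagen, read 8.85, 9.85 and 8.62 at day 0 and 8.66 and 8.93 in the medium control, with overlapping groups. Its probe set used differed by -0.31 and another by 1.31, so they disagree in direction. Col4a2, a basement membrane chain named after its values were seen, differed by 2.59 ± 0.45 (limma, adjusted p = 0.0577) and rose without day 0 replicate 1 (0.0124). Of 18 proteoglycans, Dcn alone passed.

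Rerg, a Ras-like GTPase linked to low growth, read 7.34, 7.41 and 7.12 at day 0 and 3.40 and 3.30 in the medium control and fell by 3.94 ± 0.51 (limma, adjusted p = 0.0227). Hoxb5os, an antisense transcript of the Hoxb cluster, fell by 3.06 ± 0.44 (limma, adjusted p = 0.0286) from 9.43, 10.10 and 9.76 to 6.69 and 6.72, and was 1 of 22 measured Hox list members to pass. Lbh, a transcriptional regulator of limb and heart development, fell by 2.54 ± 0.42 (limma, adjusted p = 0.0463). Its other probe sets differed by 0.30 and -1.40 and so disagree in direction.

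The other falls included genes of membrane traffic and the cell surface. Tbc1d24, a protein of vesicle traffic, read 9.13, 9.65 and 9.82 at day 0 and 7.30 and 7.74 in the medium control, with 2 other probe sets differing by -0.06 and -1.33. Wdr81, an endosomal protein, fell by 1.90 from 8.69, 9.45 and 9.15 to 7.31 and 7.10. Ap1g2, an adaptor subunit of clathrin coats, and Ttyh2, a tweety family membrane protein, fell by 1.11 and 1.68, and Gpr146, a G protein-coupled receptor, by 1.57. Dnm3, a dynamin, and Qpct, the enzyme that forms N-terminal pyroglutamate, were under the filter value of 2.38 on both medium control arrays, so they fell by at least 1.96 and 1.72. All 13 falls had adjusted p-values (limma) between 0.00321 and 0.0463.

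The remaining rises were in genes of varied function. Slco1a5, a transporter of organic anions, read between 2.28 and 2.51 at day 0 and 4.58 and 4.77 in the medium control. Atf7ip2, a partner of an ATF family factor, read 2.55, 2.29 and 2.28 against 4.50 and 4.69, and Mlf1, myeloid leukaemia factor 1, rose by 2.25. Pigg, an enzyme of GPI anchor synthesis, held the same value of 4.22 on all 3 day 0 arrays, and its medium control arrays read 5.80 and 6.74. Gnat2, a transducin subunit, Cpeb1, a regulator of polyadenylation, Pard3b, a polarity protein, Hunk, a kinase, and Lyplal1, a lysophospholipase-like protein, rose by 1.89, 1.67, 1.62, 1.53 and 1.52, in that order. Lysmd2, a LysM domain protein, rose by 1.31, and Pi15, a secreted protease inhibitor, by at least 1.11 because all day 0 arrays were at the lowest value.

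Other probe sets did not always move with the one used. Among the 40 genes, 12 had 18 further probe sets past the filter, of which 14 differed in the same direction and 8 of those by at least 1 on the log2 scale. Those of Ska1, Ttyh2, Pard3b, Pi15 and Slco1a5 differed by -0.03 to 0.47.

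Immediate early genes, the first wave of the serum response, held no call 24 h after the medium change, as was so for most lists. Of 30 measured members, 10 were at least 2-fold lower with groups that did not overlap and 3 as far higher, against 8.91% and 6.99% of all genes. Their median was -0.81 (-0.44 without day 0 replicate 2). Fos read 14.10, 14.03 and 11.75 at day 0 and 12.69 and 12.29 in the medium control, with overlapping groups, and Egr1 read 13.36, 13.57 and 13.35 against 12.42 and 12.31, without overlap. Myc, which drives ribosome and growth genes, differed by 1.32 ± 0.42 (limma, adjusted p = 0.304). Atf3, a stress-induced member of the list named after its values were seen, differed by -2.40 and fell with day 2 co-culture replicate 1 left out (limma, adjusted p = 0.0326).

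Inflammatory and interferon genes held no call either. Of 25 measured inflammatory cytokines and NF-kB targets, 8 were at least 2-fold lower without overlap and 2 as far higher, with a median of -0.70. Of 22 interferon response genes, 3 were as far lower and none as far higher, with a median of -0.53 (-0.25 without day 0 replicate 2). Across all genes these shares were 8.91% lower and 6.99% higher. Il6 differed by -2.32 ± 1.14 and Ccl2 by -2.17 ± 1.54, and the NF-kB inhibitor Nfkbia by -0.66 ± 0.35. Irf9 and Ifit2 of the interferon list differed by -0.17 and -0.58 and did not pass. With day 2 co-culture replicate 1 left out, Lcn2 of the inflammatory list rose, and Ifit3 and Irgm1 of the interferon list fell (limma, adjusted p = 0.039 and 0.0224). Lcn2 and Irgm1 were named after their values were seen.

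Over all genes 0.221% rose and 0.107% fell past the threshold, so a list of this size would seldom hold a call. Niche factors, through which stroma acts on haematopoietic stem cells, held none. Of 23 measured, 5 were at least 2-fold lower without overlap and 2 as far higher, against 8.91% and 6.99% of all genes. Their median of -0.49 shrank to -0.07 without day 0 replicate 2. Cxcl12, the chemokine that retains stem cells, read 12.86, 12.19 and 11.59 at day 0 and 12.10 and 12.28 in the medium control. Kitl, the ligand of Kit, read 11.40, 12.84 and 11.25 against 9.77 and 10.17, without overlap. That difference of -1.86 ± 1.77 did not pass (limma, adjusted p = 0.938), with its spread estimated over all 13 arrays. Vcam1, an adhesion receptor, differed by -0.26 ± 1.02, and its other probe sets by 0.57 and -0.66. Wnt5a and the Wnt antagonist Sfrp1 differed by -0.57 ± 1.34 and -1.46 ± 1.90, and none of 21 measured Wnt ligands and antagonists passed.

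CCN proteins, matricellular regulators of growth factor signalling, held no call. Ccn2, also known as connective tissue growth factor, read 10.12, 10.06 and 10.63 at day 0 and 13.62 and 13.61 in the medium control, a difference of 3.34 ± 0.78 (limma, adjusted p = 0.155). Ccn3 read 10.89, 12.02 and 9.98 against 7.01 and 7.43, a difference of -3.75 ± 0.87 (limma, adjusted p = 0.155). The groups did not overlap in either gene, and Ccn2 passed with day 2 co-culture replicate 1 left out (adjusted p = 0.0206). Ccn1, which shares its YAP control with Ccn2, differed by -0.14 ± 0.70.

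Of metabolic lists, none but the fatty acid binding proteins held a call. Hk2, the inducible hexokinase, read 6.51, 7.02 and 6.29 at day 0 and 9.11 and 9.02 in the medium control, and its difference of 2.46 ± 0.49 missed the threshold (limma, adjusted p = 0.0983). Ldha, lactate dehydrogenase A, differed by 0.76 and the glucose carrier Slc2a1 by -0.16. Of 25 genes of glycolysis and the hypoxia response, 6 were at least 2-fold higher without overlap and 2 as far lower. The shares over all genes were 6.99% and 8.91%. Phgdh, the first enzyme of serine synthesis, named after its values were seen, differed by 1.90 ± 0.33 (limma, adjusted p = 0.053) and rose both with day 2 co-culture replicate 1 left out (0.0224) and without day 0 replicate 1 (0.0201). None of 24 measured genes of cholesterol and fatty acid synthesis passed. Clock genes did not pass, with Per1, Per2 and Per3 differing by 0.06, 1.80 and -1.54. Of heat shock proteins, Hspa1a and Hspa1b differed by -2.43 and -1.39 and fell without day 0 replicate 1 (limma, adjusted p = 0.0169 and 0.046).

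The plot of gene lists sets the share of distant members in each list with at least 10 measured genes, cell type markers apart, beside that of all genes. Ribosome biogenesis and DNA replication stand at its top for higher members, and among lower members immediate early genes have 10 of 30, matrix glycoproteins 11 of 34 and inflammatory genes 8 of 25.

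**Figure D2:**
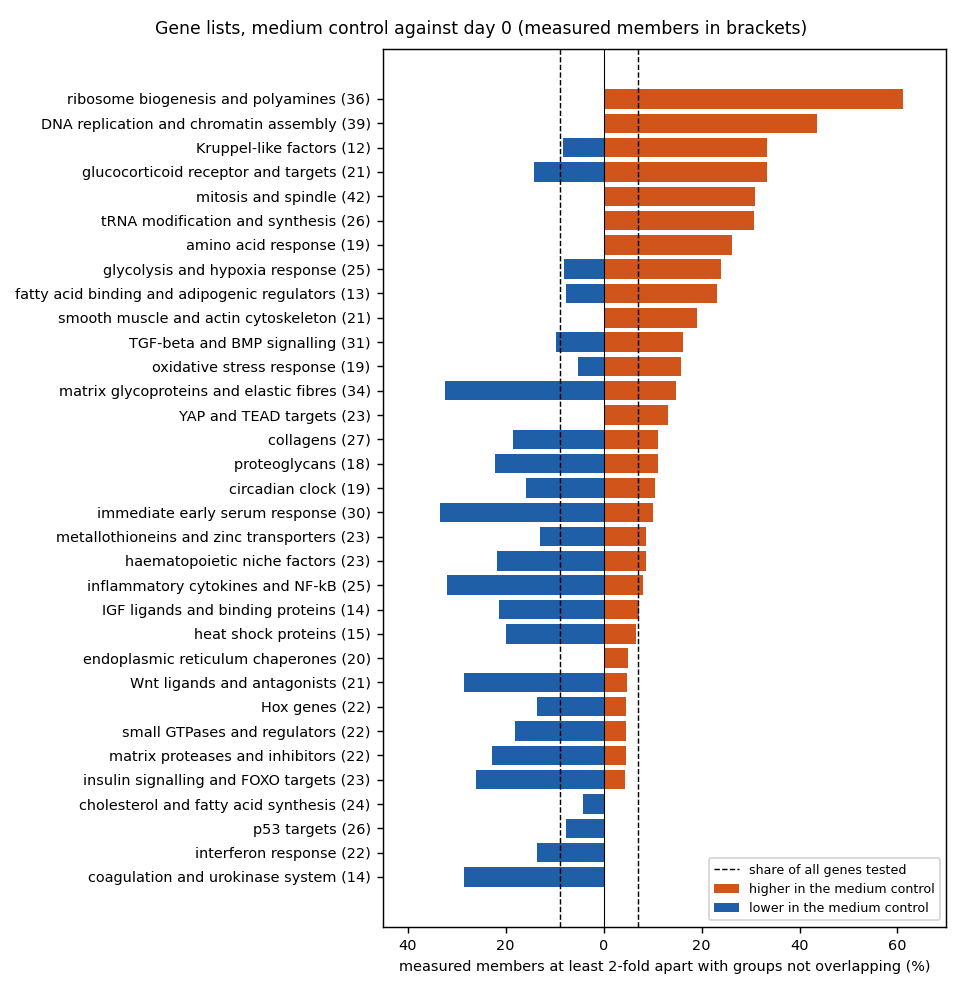
Share of each list's measured members at least 2-fold higher (orange) or lower (blue) in the medium control with groups that did not overlap. Dashed lines give the shares of all genes, 6.99% and 8.91%; ribosome biogenesis has 22 of 36 members higher and none lower.

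No marker of another cell type passed the threshold as reported. Kdr, a receptor of VEGF best known in endothelium, read 6.28, 5.89 and 6.66 at day 0 and 10.40 and 10.42 in the medium control, a difference of 4.13 ± 1.75 (limma, adjusted p = 0.492) that passed with day 2 co-culture replicate 1 left out (0.00821). The other 2 measured endothelial markers, Egfl7 and Esam, differed by 0.24 and 0.01, and the mean over the 3 ranged from 4.39 to 4.73 at day 0 and from 6.01 to 6.11 in the medium control. Itga2b, a megakaryocyte integrin, differed by -2.03 ± 0.37 (limma, adjusted p = 0.0661) and fell with day 2 co-culture replicate 1 left out (0.0162). Mpo, of granulocyte precursors, held the same value of 3.53 on all 5 arrays.

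Levels of the called genes in co-culture split the list. These are group means with no test, since co-culture is set against the same day 0 arrays. Myeloid markers averaged 3.13 and 3.16 on the medium control arrays and between 4.11 and 9.32 on the co-culture arrays. RNA of stroma and RNA of blood cells therefore cannot be told apart in co-culture. On day 2 replicate 1 the stromal markers averaged 6.52 and the myeloid markers 9.32. At day 1 of co-culture, 6 of the 27 rises (Tsc22d3, Mt2, Irs2, Klf13, Fabp5 and Srm) and 7 of the 13 falls (Gpr146, Qpct, Dnm3, Dcn, Rerg, Abi3bp and Thbd) had a mean past the midpoint between day 0 and the medium control. At day 2, with replicate 1 in the mean, these were 5 and 8, and at day 3 they were 4 and 7. Mt2 averaged 13.26, 12.85 and 12.72 over days 1 to 3, and Tsc22d3 11.17, 10.46 and 10.86. Dcn averaged 2.52, 2.63 and 2.61, and Abi3bp 2.28 on each day.

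The other rises lay on the day 0 side of the midpoint on day 1. Zfp185 averaged 2.32, 2.57 and 2.35 over days 1 to 3, below its day 0 mean of 3.75. Chaf1b averaged 5.22, 4.06 and 4.55 against 5.13 at day 0, Ska1 2.39, 2.47 and 2.85 against 2.75, and Rad18 3.37, 3.37 and 3.64 against 3.48. Hoxb5os, which fell in the medium control, averaged 10.04, 9.21 and 10.78 in co-culture against 9.76 at day 0, and Lbh, Wdr81, Tbc1d24 and Ap1g2 were likewise on the day 0 side of the midpoint on each day. The plot of co-culture levels shows these sets side by side.

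**Figure D3:**
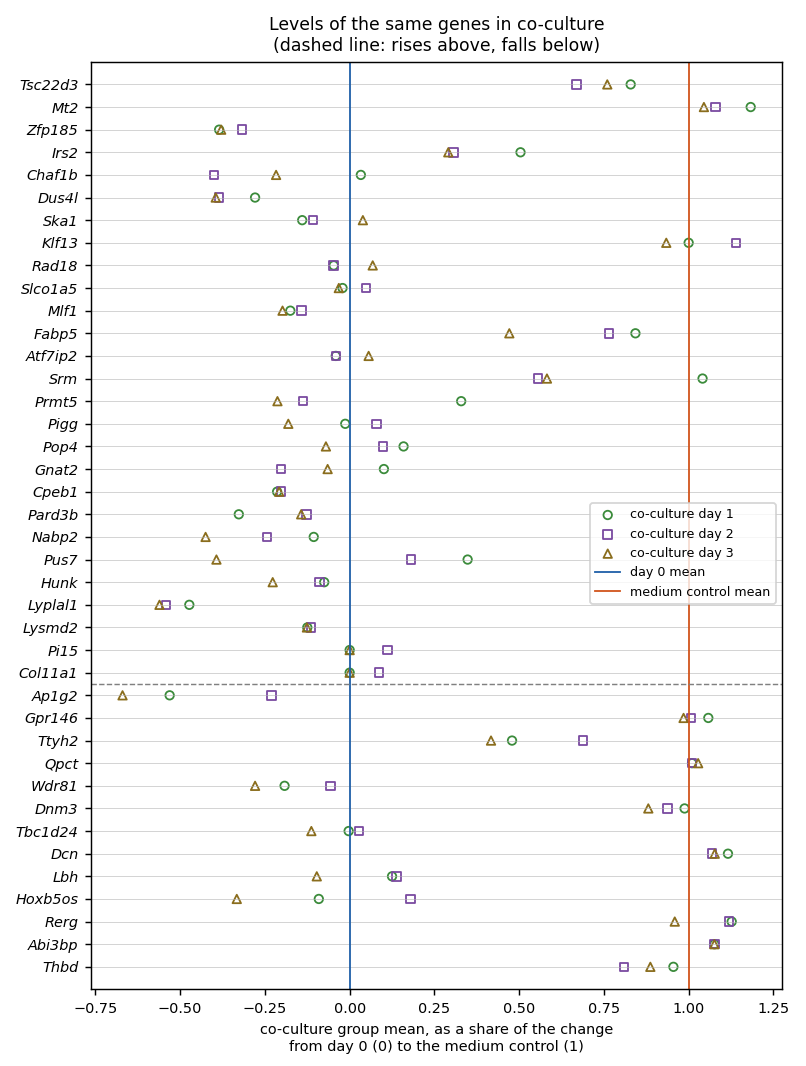
Mean level of the 40 called genes on days 1, 2 and 3 of co-culture, as a position between the day 0 mean (0) and the medium control mean (1), with rises above the dashed line and falls below it. Mt2 lies past 1 on all 3 days, while Zfp185 lies below 0.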

How the data were processed

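The series' value table was used as deposited by the authors, on a log2 scale as read from its range of 2.28 to 15.7. RMA and GCRMA are named, per the submitters' processing notes, with no version and no statement of which made the table. Of 45101 probe sets, 64 were controls, and 34945 had 1 gene symbol, 932 several and 9160 none in the platform annotation; 34884 of the first kind matched RefSeq symbols and none was renamed. Probe sets above the pooled median of 2.38 on at least 2 arrays (25216) entered, and each gene took its single-symbol probe set with the highest mean over 13 arrays, giving 12205 genes, 5467 of them with several probe sets past the filter. All 13 arrays were fitted in limma 3.58.1 (R 4.3.3; a mean per group, eBayes), with Benjamini-Hochberg adjusted p-values and a threshold of 0.05. The fit was tested on simulated data. A group wholly at the lowest or a repeated low value, or under the filter, gives a bound, written as at least. The number of arrays limits precision.

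The comparison and the 41 gene lists (987 genes, 795 measured) were chosen with earlier results of these data known. Named genes were all 40 called ones, the first 3 measured members of a list without calls, and a fixed set of niche, growth and matrix genes; others are marked as chosen after their values were seen. Promoter windows came from RefSeq (GRCm38.p6). Figures were drawn with matplotlib 3.10.9. Alternatives covered filters, scaling, probe set averaging, the arrays fitted, variance models, array weights, a replicate block and leaving out each compared array.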

Additional observations from a re-analysis of the deposited data

How the results depend on the processing

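As reported, 40 genes passed (limma, adjusted p below 0.05), 27 higher and 13 lower. With no filter on dim probe sets 60 passed, 45 of them higher, and with a stricter filter (above 5 on at least 2 arrays) 12, as 7 higher and 5 lower. Centring left 1 higher and 0 lower, fitting the 5 compared arrays alone gave 83 (47 and 36, with 11 of the reported 40), and fitting 8 arrays with day 1 co-culture gave 761 (391 and 370). Leaving out day 2 co-culture replicate 1 gave 166 (95 and 71), and array weights gave 3585 (1732 and 1853). The replicate block gave 8 (6 and 2). Same-numbered day 0 and medium control arrays deviated together at r = -0.01 and 0.09. The 2 medium control arrays deviate from their mean as mirror images, so this cannot decide if replicate numbers pair the samples. Leaving out each compared array in turn gave 8 to 137 genes, 7 to 81 of them higher and 0 to 56 lower. The 0 lower came without medium control replicate 1, where 502 genes had an unadjusted p below 0.05. Quantile normalization gave 28, averaging probe sets 49 and an intensity trend with a robust prior 48. None of the 40 changed direction in any setting, and 0 held in all settings. Direction could not reverse on leaving out 1 compared array, because the groups did not overlap in these genes. Nor could it where only the spread or the co-culture arrays fitted changed. The cause of the shifts in count was not tested. Depth is not defined for these arrays, and genes at the lowest value give bounds only.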
